A study of Mus musculus with 2 samples.

Results

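*Crx*, *Thrb*, *Rxrg* and *Prdm1* encode transcription factors of photoreceptor fate and were chosen by name, 4 of the 31053 genes in the count tables. Their transcripts were followed cell by cell in eye cups of mouse embryos at e13.5, after removal of cornea, lens and optic nerve, in 2 droplet libraries on the 10X Genomics platform. Each captured transcript carries a unique molecular identifier (UMI), so that a UMI stands for 1 captured molecule. The control library came from 3 pooled *Myrf fl/fl* samples, in which both copies of *Myrf* are flanked by loxP sites. The mutant library came from 3 pooled *Rx>cre Myrf fl/fl* samples, which carry the same floxed alleles and a Cre recombinase expressed from an *Rx* transgene that deletes *Myrf* in the eye field lineage. Cells of the cup from other lineages, such as mesenchyme, blood and endothelium, keep the floxed alleles in both libraries. With 1 pooled library per genotype, genotype, library preparation and pool of embryos cannot be told apart. No test was made, and every interval is a 95% interval for counting error only.

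Photoreceptors arise from retinal precursors that leave the cell cycle and express the homeobox gene *Otx2*, and in the mouse cones are born before birth while most rods are born later. CRX is a homeodomain protein that switches on photoreceptor genes, and PRDM1, also called BLIMP1, is a zinc finger repressor that keeps OTX2-expressing precursors from turning into bipolar cells. THRB is the beta receptor for thyroid hormone and RXRG the gamma retinoid X receptor, a pair of nuclear receptors of developing cones that set which opsins cones make.

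The genes lie on 4 chromosomes of GRCm38. *Crx* spans chromosome 7 from 15865947 to 15879968 on the minus strand, and *Prdm1* chromosome 10 from 44437177 to 44528501, also on the minus strand. *Rxrg* spans chromosome 1 from 167598384 to 167639623 on the plus strand. *Thrb* is the longest, from 17660261 to 18038090 of chromosome 14 on the plus strand, and annotated exons cover 1.96% of that span against 22.5% for *Crx*, so its count depends most on whether intronic reads were counted, which is not given in the sources used here.

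The promoters were searched for TAATCC, the core letters bound by CRX and OTX2, on both strands of the 250 bases before each RefSeq start on GRCm38.p6. All 4 genes matched, with 6 promoter entries. Of 32851 promoters in the mouse, 6.25% held the letters, and among the 4 genes *Crx* and 1 entry of *Thrb* did. The *Crx* window is shown because it held them at 2 places, 94 and 21 bases before the start. There the letters lie on the strand opposite to the printed one, which reads GGATTA, in capitals. The 13 bases that overlap an annotated exon were left out.
*Crx* promoter, chr7:15879969-15880205, minus strand: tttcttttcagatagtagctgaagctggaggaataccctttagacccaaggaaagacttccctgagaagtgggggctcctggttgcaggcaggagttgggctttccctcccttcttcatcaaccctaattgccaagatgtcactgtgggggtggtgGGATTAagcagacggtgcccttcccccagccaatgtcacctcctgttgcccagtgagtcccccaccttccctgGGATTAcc
AGGTCA, a motif of nuclear receptors, stood in 14.0% of promoters and in those of *Thrb* and *Rxrg*. CAGATG, a motif of basic helix-loop-helix factors such as NEUROD1, stood in 14.4% of promoters and in none of the 4 genes. These matches describe the letters in the windows and no binding was measured.

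The tables held 6039 control and 6754 mutant barcodes with 63483835 and 75228861 UMIs. After filters on genes, mitochondrial share and doublets, 5468 and 6300 cells were kept, at a median of 11332 and 11154 UMIs. *Myrf*, the deleted gene, stood at 74.3 CPM (UMIs per 1000000 UMIs of a class) in control and 20.1 CPM in mutant cells resembling retinal pigment epithelium (RPE), a log2 ratio of -1.85 (-2.50 to -1.32). The libraries shared 72 barcodes, of which 69 and 67 were kept, with 9 and 6 UMIs of the 4 genes among them and no cell of the photoreceptor class.

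Clusters were named from marker genes that did not include *Crx*, *Thrb*, *Rxrg* or *Prdm1*, and these 4 and the listed genes were left out of the features used for clustering. Of 40 clusters, 1 was called photoreceptor precursor-like, with 52 control and 73 mutant cells. Its leading genes by fold over the other cells were *Neurod4*, *Neurod1*, *Prdm1*, *Crx*, *Otx2*, *Samd11*, *Dll3*, *Ankrd33b*, *Btg2* and *Meis2*. Among its naming markers, *Neurod1* was found in 94.2% of control and 94.5% of mutant cells, *Otx2* in 78.8% and 71.2%, and *Neurod4* in 67.3% and 61.6%. Markers of later photoreceptors were scarce, as the cone transducin subunit *Gngt2* was found in 19.2% of cells in each library, the retinoid carrier *Rbp3* in 11.5% and 2.74%, and recoverin (*Rcvrn*) had no UMI. *Atoh7* and *Hes6*, genes of neurogenic precursors, had UMIs in 100% of its cells in both libraries. A further 7 clusters stayed unnamed, with 17.8% of control and 16.6% of mutant cells.

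The photoreceptor precursor-like class made up 2.20% (1.65 to 2.88) of the 2359 control retinal cells and 2.75% (2.16 to 3.44) of the 2656 mutant retinal cells. The difference of 0.544 points had an interval from -0.331 to 1.41, within counting error. Its median cell held 12650.5 control and 11411 mutant UMIs.

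Across 14 named classes, 3 of the 4 genes were highest in the photoreceptor precursor-like class in both libraries, and *Rxrg* was higher in muscle precursor-like cells. *Crx* stood at 180 CPM (148 to 217) in control and 99.7 CPM (79.5 to 123) in mutant photoreceptor precursor-like cells. In every other class of either library *Crx* was at 2.4 CPM or lower. In order of level the RPE-like cells came next in the control, at 2.4 CPM (0.778 to 5.59) from 5 UMIs, and neurogenic precursor-like cells in the mutant, at 2.18 CPM (0.707 to 5.08) from 5 UMIs, and from there on the intervals of neighbouring classes overlapped. The class held 82.2% of all control *Crx* UMIs and 64.6% of all mutant *Crx* UMIs. In red blood cell-like cells, where the gene should be silent, there was a *Crx* UMI in 0 of 208 control cells and 2 of 489 mutant cells, at median depths of 22476.5 and 22706 UMIs.

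**Figure D1:**
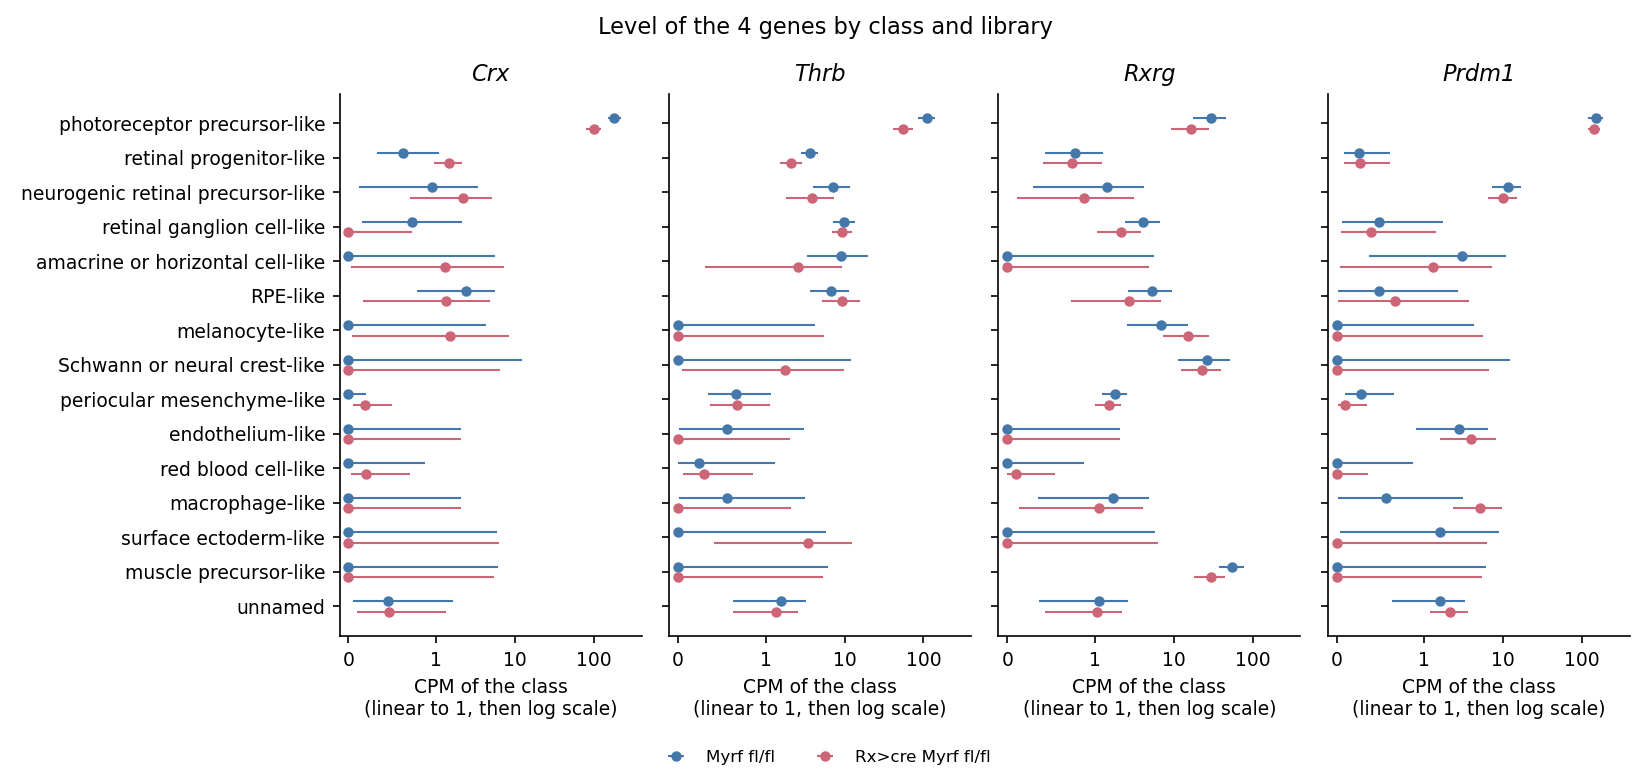
Level of *Crx*, *Thrb*, *Rxrg* and *Prdm1* in each class of the *Myrf fl/fl* (blue) and *Rx>cre Myrf fl/fl* (red) library, in CPM on an axis that is linear to 1 and logarithmic above, with exact Poisson 95% intervals as bars. *Crx* stands far to the right in the photoreceptor precursor-like class alone, at 180 CPM in the control. *Prdm1* and *Thrb* are also highest there, at 148 and 111 CPM in the control. At lower levels *Prdm1* appears in neurogenic precursor-like cells (11.4 CPM in the control) and *Thrb* in ganglion cell-like cells (9.90 CPM). *Rxrg* is highest in muscle precursor-like cells.

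*Prdm1* stood at 148 CPM (119 to 182) in control and 141 CPM (117 to 169) in mutant photoreceptor precursor-like cells, where 63.2% and 65.0% of its UMIs were found. Neurogenic precursor-like cells came next, at 11.4 CPM (7.28 to 16.9) in the control and 10.0 CPM (6.35 to 15) in the mutant. Outside the retina, *Prdm1* was counted in endothelium-like cells at 2.77 and 3.89 CPM. In macrophage-like cells it had 1 UMI in the control and 9 in the mutant, 0.559 CPM (0.0142 to 3.11) and 5.05 CPM (2.31 to 9.59), and these intervals overlapped. No red blood cell-like cell of either library had a *Prdm1* UMI.

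*Thrb* stood at 111 CPM (85.8 to 140) in control and 55.8 CPM (41.0 to 74.2) in mutant photoreceptor precursor-like cells, but the class held 28.8% and 24.9% of its UMIs. Retinal ganglion cell-like cells held 41 and 48 *Thrb* UMIs, or 9.90 CPM (7.11 to 13.4) and 9.38 CPM (6.91 to 12.4). The retinal progenitor-like cells, the largest class, held 70 and 40 *Thrb* UMIs at 3.63 CPM (2.83 to 4.58) and 2.10 CPM (1.5 to 2.86). RPE-like cells stood at 6.71 CPM (3.67 to 11.3) and 9.36 CPM (5.12 to 15.7). Below the photoreceptor class the intervals of neighbouring classes overlapped, except that in the control the periocular mesenchyme-like cells stood apart at 0.668 CPM (0.345 to 1.17), beneath the progenitor-like cells. Red blood cell-like cells had a *Thrb* UMI in 1 of 208 and 3 of 489 cells.

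*Rxrg* had its highest level outside the retina. Muscle precursor-like cells stood at 54.5 CPM (37.5 to 76.6) in the control, with a UMI in 17 of 25 cells, and at 29.1 CPM (17.8 to 45.0) in the mutant, with a UMI in 13 of 29 cells. Photoreceptor precursor-like cells stood at 29.3 CPM (17.3 to 46.2) and 16.6 CPM (9.08 to 27.9), and the Schwann or neural crest-like class at 26.4 CPM (11.4 to 52.1) and 23.0 CPM (12.2 to 39.3), so these 3 classes were not separated by counting error. Melanocyte-like cells followed at 6.95 CPM (2.55 to 15.1) and 15.1 CPM (7.23 to 27.7). The photoreceptor class held 11.9% of control and 10.9% of mutant *Rxrg* UMIs, and the widespread periocular mesenchyme-like cells held 21.2% and 24.0% at 1.78 and 1.49 CPM. In retinal ganglion cell-like cells *Rxrg* stood at 4.11 CPM (2.39 to 6.57) and 2.15 CPM (1.07 to 3.85).

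Set against the other retinal classes, all 4 genes were among those enriched in photoreceptor precursor-like cells. Of 8466 genes with at least 10 UMIs in the class, 2.21% were at least 4-fold higher there in both libraries, and the 4 genes were among these 187. *Crx* was 265-fold higher in the control (rank 5) and 78.4-fold higher in the mutant (rank 14). *Prdm1* was 115-fold (rank 10) and 121-fold (rank 12) higher. *Rxrg* was 22.5-fold (rank 51) and 17.3-fold (rank 46) higher, and *Thrb* 22.1-fold (rank 52) and 15.5-fold (rank 56). The class was built from the other genes of the same cells, so these folds are given as a description.

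Within the photoreceptor precursor-like class the genes were present in some cells and missing in others. *Crx* had UMIs in 27 of 52 control cells and 29 of 73 mutant cells, with up to 14 UMIs in a control and 7 in a mutant cell. *Prdm1* had UMIs in 30 control and 40 mutant cells, with up to 6 and 8 per cell. *Thrb* had UMIs in 21 and 20 cells, with up to 10 and 6 per cell, and *Rxrg* in 10 and 8 cells, with up to 4 in each library. At these depths a cell with few transcripts of a gene can show none.

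Counted over both libraries, 47 of the 125 cells had none of the 4 genes, and 14 cells had all 4, of which 8 were control and 6 mutant cells. *Crx*, *Thrb* and *Prdm1* without *Rxrg* were found together in 19 cells, and *Crx* with *Prdm1* alone in 16. *Crx* with *Rxrg* and *Prdm1* was found in 3 cells, *Thrb* with *Prdm1* in 4 and *Rxrg* with *Prdm1* in 1. Of cells with a member alone, 13 had *Prdm1*, 4 had *Crx* and 4 had *Thrb*, while no cell had *Rxrg* alone. The 13 cells with *Prdm1* alone were 1 control and 12 mutant cells, and 4 and 11 after thinning each cell to 3000 UMIs. In all kept cells, by contrast, *Thrb* was found without the others in 269 cells and *Rxrg* in 190, against 86 for *Prdm1* and 45 for *Crx*.

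**Figure D2:**
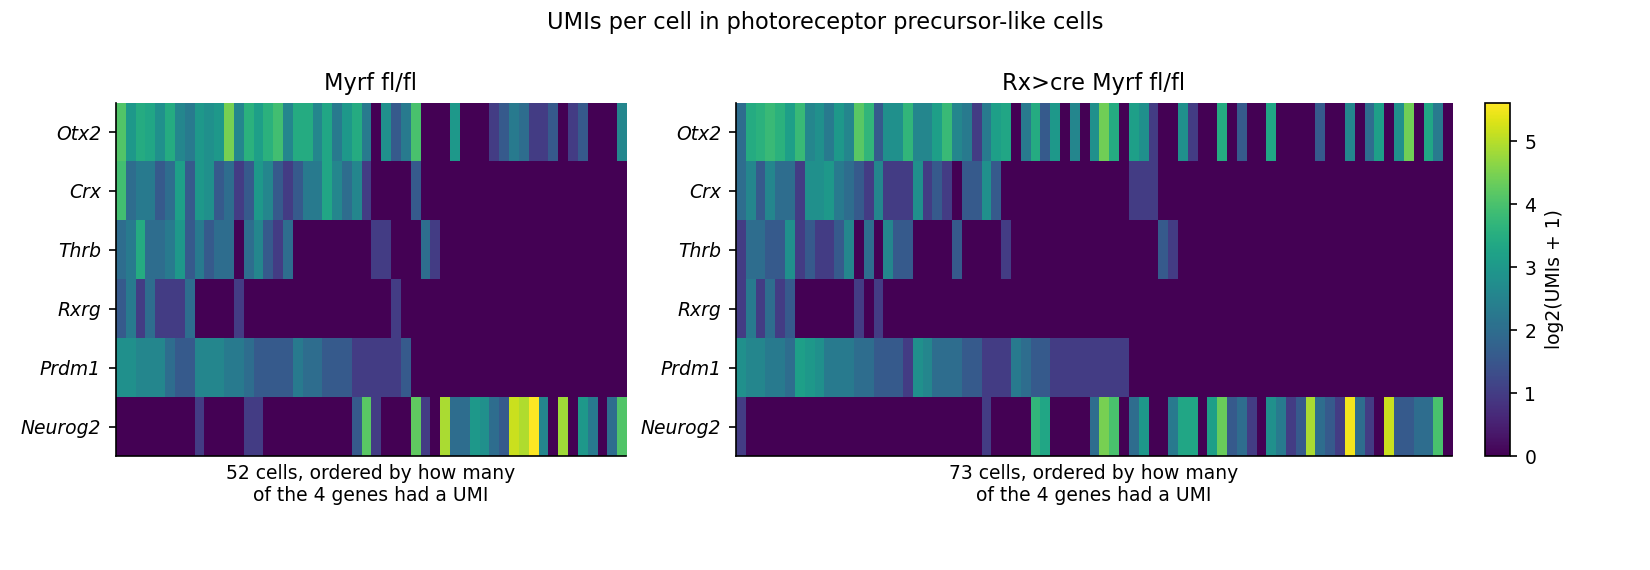
UMIs of *Otx2*, *Crx*, *Thrb*, *Rxrg*, *Prdm1* and *Neurog2* in each of the 52 *Myrf fl/fl* (left) and 73 *Rx>cre Myrf fl/fl* (right) photoreceptor precursor-like cells, as log2(UMIs + 1), with a column for each cell in order of how many of the 4 genes it has. Cells with *Crx* on the left of each panel also have *Prdm1* and *Otx2* and mostly lack *Neurog2*, and *Neurog2* is found on the right, where the 4 genes are missing.

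*Crx* and *Prdm1* were found in much the same cells. Of the 56 cells with *Crx*, 52 had *Prdm1*, which was 92.9% (82.7 to 98.0), against 18 of the 69 cells without *Crx*, 26.1% (16.3 to 38.1). *Thrb* was found in 58.9% (45.0 to 71.9) of cells with *Crx* and 11.6% (5.14 to 21.6) of cells without it, and *Rxrg* in 30.4% (18.8 to 44.1) and 1.45% (0.0367 to 7.81). Read the other way, 17 of the 18 cells with *Rxrg* and 33 of the 41 cells with *Thrb* had *Crx*, and all 18 cells with *Rxrg* had *Prdm1*. The median depth was 11399.5 UMIs in cells with *Crx* and 11936 in cells without it, so the cells with *Crx* were not the deeper ones. After each cell was thinned to 3000 UMIs, *Prdm1* was found in 55.3% of cells with *Crx*, and *Crx* in 84.0% of cells with *Thrb*.

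Cells with and without *Crx* differed in other genes as well, in both libraries. *Otx2*, which acts upstream of *Crx*, was found in all 27 control and all 29 mutant cells with *Crx*, against 56.0% and 52.3% of those without. The basic helix-loop-helix gene *Neurod4* was found in 96.3% and 93.1% of cells with *Crx* and in 36.0% and 40.9% of those without. *Samd11*, which encodes a repressor of photoreceptors, was found in 55.6% and 79.3% against 12.0% and 4.55%, and the zinc finger gene *Casz1* in 44.4% and 48.3% against 16.0% and 11.4%. Genes of the photoreceptor outer segment went the same way, with the retinoid transporter *Abca4* in 55.6% and 34.5% against 8% and 2.27%, and *Gngt2* in 33.3% and 48.3% against 4% and 0%. The cone channel subunit *Cngb3* was found in 25.0% of cells with *Crx* over both libraries and in 0 of 69 cells without it, and the cone transducin subunit *Gnb3* in 32.1% and 2.90%.

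Genes of earlier or other neurons were more frequent in cells without *Crx*. The proneural gene *Neurog2* was found in 72.0% of control and 68.2% of mutant cells without *Crx*, against 22.2% and 13.8% of those with it. *Bhlhe22*, a regulator of interneurons, was found in 60% and 70.5% against 25.9% and 34.5%, and *Isl1*, a LIM homeobox gene of ganglion and bipolar cells, in 28.0% and 38.6% against 7.41% and 3.45%. The mitotic genes *Ube2c* and *Top2a* were found in 43.5% and 40.6% of cells without *Crx* over both libraries, against 19.6% and 17.9% of those with it. *Hes5*, an effector of Notch, was found in 40.6% against 19.6%. *Atoh7* was found in every cell of both sets, at 9202 CPM in cells without *Crx* and 4526 CPM in those with it. These genes were chosen after their values were seen.

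**Figure D3:**
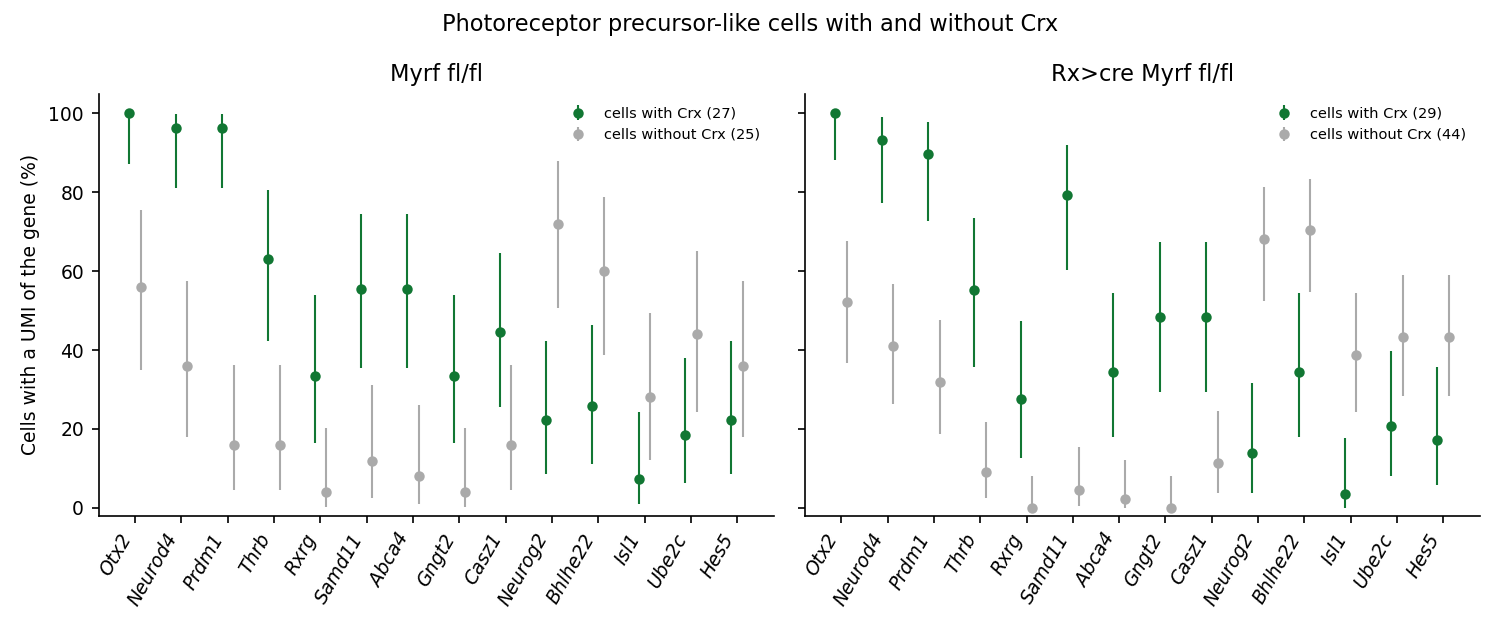
Share of photoreceptor precursor-like cells with a UMI of each gene, in percent, among cells with (green) and without (grey) a *Crx* UMI, for the *Myrf fl/fl* library (left) and the *Rx>cre Myrf fl/fl* library (right), with exact binomial 95% intervals as bars. The green points lie above the grey ones from *Otx2* to *Casz1* and below them from *Neurog2* to *Hes5* in both libraries.

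A split of the same class by *Prdm1* gave a like picture. The 70 cells with *Prdm1* had *Otx2* in 92.9% and *Neurod4* in 90%, against 50.9% and 30.9% of the 55 cells without it. *Gngt2* was found in 34.3% of cells with *Prdm1* and in 0 of those without, and *Rxrg* in 25.7% and 0 of those without. *Neurog2* was found in 18.6% of cells with *Prdm1* and 81.8% of cells without it, *Bhlhe22* in 30% and 76.4%, and *Isl1* in 5.71% and 41.8%. *Vsx1*, *Grm6* and *Cabp5*, genes of maturing bipolar cells, had no UMI in the class.

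The comparison between genotypes asks whether loss of *Myrf* from the eye field lineage went with a change in these genes in photoreceptor precursors. *Crx* had 111 UMIs in the control class and 84 in the mutant class, 180 and 99.7 CPM, a log2 ratio of -0.85 (-1.28 to -0.43). *Thrb* had 68 and 47 UMIs, 111 and 55.8 CPM, a ratio of -0.98 (-1.56 to -0.43). Both were lower in the mutant library beyond counting error. *Rxrg* had 18 and 14 UMIs and a ratio of -0.80 (-1.94 to 0.27), an interval that includes 0. *Prdm1* had 91 and 119 UMIs and a ratio of -0.07 (-0.47 to 0.34), which includes 0 as well.

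Of the 4 genes, 3 were at least 1.5-fold lower in the mutant class, and 13.9% of the 8466 genes compared were as well, with 8.21% at least 1.5-fold higher. The median log2 ratio was -0.82 over the 4 genes and -0.05 over all genes compared.

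The shares of cells with a UMI did not separate the libraries. *Crx* was found in 51.9% of control and 39.7% of mutant cells, a difference of -12.2 points (-28.8 to 5.32). The difference was -13.0 points (-29.2 to 3.57) for *Thrb*, -8.27 points (-22.0 to 4.21) for *Rxrg* and -2.90 points (-19.8 to 14.4) for *Prdm1*. Cells with the gene held a mean of 4.11 control and 2.90 mutant *Crx* UMIs, and 3.24 and 2.35 *Thrb* UMIs. For *Prdm1* the means were 3.03 and 2.98, and for *Rxrg* 1.80 and 1.75. After thinning to 3000 UMIs, 38.0% of control and 27.1% of mutant cells had *Crx*, 28.0% and 15.7% had *Thrb*, 6% and 4.29% had *Rxrg*, and 28.0% and 32.9% had *Prdm1*.

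The call for *Crx* and for *Thrb* depended on how the cells were chosen. When the listed genes were allowed into the clustering, the class shrank to 28 control and 30 mutant cells and the log2 ratios became -0.34 (-0.78 to 0.08) for *Crx* and -0.49 (-1.09 to 0.08) for *Thrb*. Over all retinal cells *Crx* was at -0.18 (-0.55 to 0.19) and *Thrb* at -0.52 (-0.84 to -0.20). In cells of male embryos, taken as those with a UMI of a Y-linked gene and none of *Xist*, *Crx* was at -0.15 (-0.97 to 0.72) and *Thrb* at -0.72 (-1.82 to 0.34), and in cells of female embryos, with *Xist* and no Y-linked gene, they were at -1.11 (-1.88 to -0.44) and -0.95 (-1.90 to -0.12). Across 14 alternatives the ratio stayed below 0 for *Crx* (-1.11 to -0.15), *Thrb* (-1.19 to -0.49) and *Rxrg* (-2.05 to -0.16), and for *Prdm1* it ranged from -0.28 to 0.41. The whole interval lay below 0 in 9 of the 14 for *Crx* and in 11 for *Thrb*, and 1 of the 14 has no interval.

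**Figure D4:**
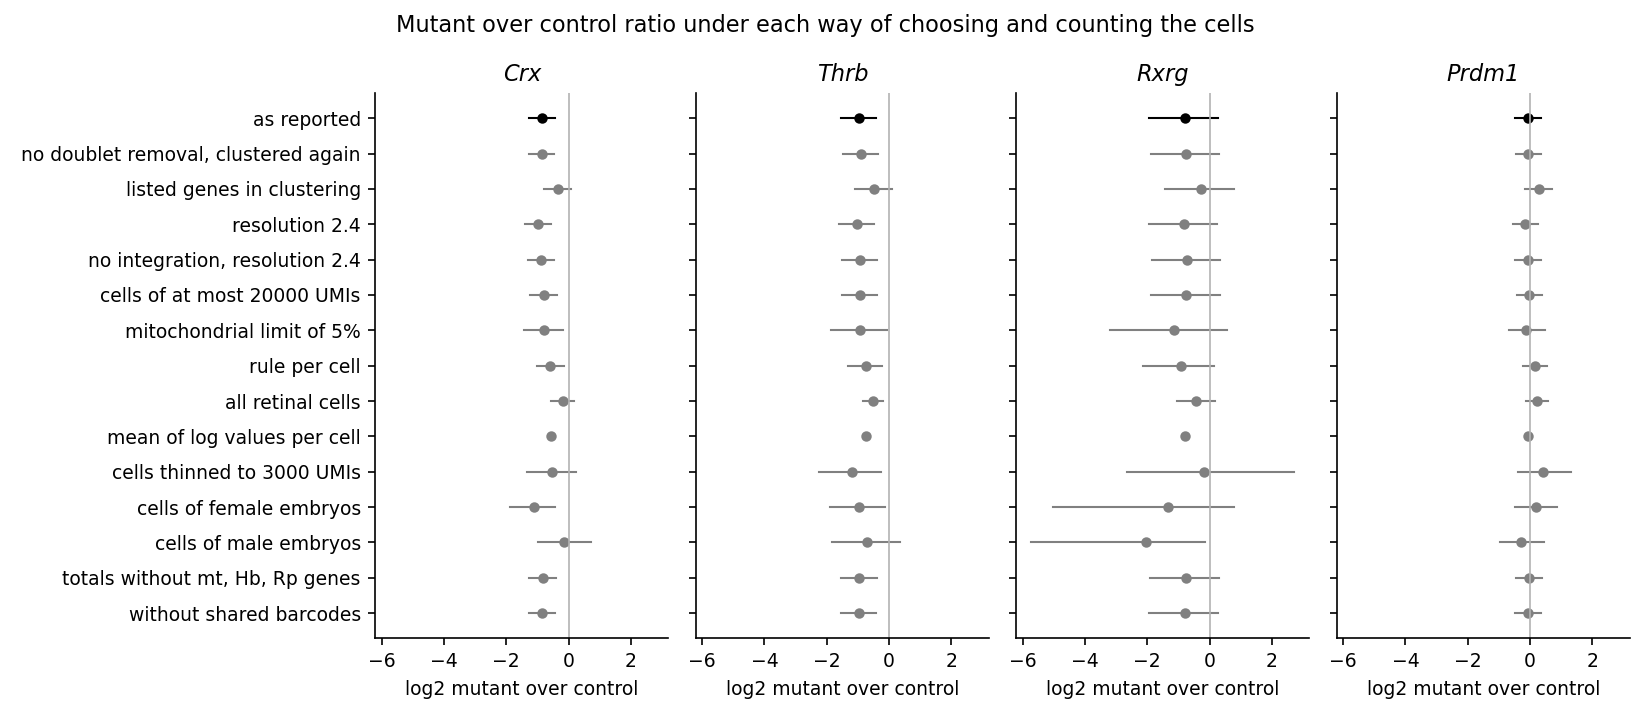
Log2 ratio of mutant over control for *Crx*, *Thrb*, *Rxrg* and *Prdm1* in photoreceptor precursor-like cells as reported (black) and under each alternative (grey), with 95% counting intervals as bars and no interval for means of log values. *Crx* and *Thrb* lie left of 0 in every row, with intervals that reach 0 in some of them, and *Prdm1* lies around 0.

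Markers of other classes were also counted in the same class, and their sums went in different directions between the libraries. The summed level of 9 red blood cell markers in photoreceptor precursor-like cells was 413 CPM in the control, with 3 of them at 0, and 794 CPM in the mutant, with 2 at 0. Summed over 9 ganglion cell markers the level was 1536 and 1414 CPM, with 0 and 1 of them at 0, and over 8 progenitor markers 681 and 713 CPM with none at 0. Most of the ganglion cell sum was *Stmn2*, at 1206 and 1149 CPM and found in 80.8% and 87.7% of the cells. The largest progenitor marker was *Rax*, at 263 and 305 CPM and found in 84.6% and 91.8%. The part of these markers in the ratios was not tested.

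Other regulators of photoreceptor fate did not move together. Of 26 listed, 22 could be compared, 1 at least 1.5-fold lower and 3 higher. Over all 8466 genes compared, 13.9% were at least 1.5-fold lower and 8.21% higher, the background for this list and those below. Their median log2 ratio was 0.01. *Otx2*, the gene upstream of *Crx*, stood at 450 and 447 CPM, a ratio of -0.01 (-0.24 to 0.22). *Neurod1* was at -0.31 (-0.51 to -0.11), *Neurod4* at -0.44 (-0.75 to -0.13), *Neurog2* at -0.38 (-0.63 to -0.14) and *Samd11* at -0.51 (-1.0 to -0.02), each lower beyond counting error. *Hes5* was at 0.38 (0.11 to 0.66), higher beyond counting error. *Atoh7* (0.04), the orphan nuclear receptor *Rorb* (-0.03), *Rbpj*, which carries the Notch signal to DNA (-0.04), *Notch1* (0.02) and *Onecut2* (-0.21) had intervals that include 0. *Nrl*, the rod determinant, had 6 and 5 UMIs, and *Nr2e3*, which follows it, had none. *Otx2*, *Neurod1*, *Neurod4* and *Gngt2* were also naming markers of the class. Listed genes with under 100 UMIs in the class are named here after their values were seen.

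Of 18 listed genes of thyroid hormone and retinoid signalling, in which THRB and RXRG act, 10 could be compared, 1 was at least 1.5-fold lower and 1 higher, and the median was 0.09. The corepressor *Ncor1* was at -0.23 (-0.63 to 0.17), and the orphan receptor *Nr2f1* at 0.63 (0.03 to 1.31). *Thra*, the alpha receptor for thyroid hormone, had 20 and 35 UMIs and a ratio of 0.32 (-0.48 to 1.22), and *Rxrb* 23 and 32 UMIs and 0.01 (-0.80 to 0.86). The deiodinases *Dio1*, *Dio2* and *Dio3*, which activate or inactivate thyroid hormone, had no UMI in the class.

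Many photoreceptor genes of the kind that CRX switches on had too few UMIs to be compared, while *Gngt2* and *Unc119* were well counted. Of 12 genes of cone phototransduction 4 could be compared, 1 was at least 1.5-fold lower and none higher, with a median of -0.42. *Gngt2* had 75 and 69 UMIs and a ratio of -0.57 (-1.07 to -0.08). The cone transducin *Gnat2* was the lower gene, with 9 and 2 UMIs and a ratio of -2.19 (-5.87 to -0.35). The cone opsins *Opn1sw* and *Opn1mw* and the cone arrestin *Arr3* had no UMI in the class. Of 10 rod genes 2 could be compared, none past 1.5-fold. Of 20 genes shared by rods and cones 5 could be compared, of which *Rom1* (23 and 10 UMIs, -1.58, -2.89 to -0.53) and *Abca4* (37 and 25 UMIs, -1.0, -1.81 to -0.25) were lower and *Pdc* (15 and 32 UMIs, 0.59, -0.29 to 1.63) higher. *Unc119*, a chaperone of photoreceptor proteins, had 179 and 225 UMIs and was at -0.13 (-0.41 to 0.17).

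Among 9 genes of bipolar and interneuron fates, which PRDM1 is known to hold down, 4 could be compared, with 1 lower, 1 higher and a median of 0.36. *Bhlhe22* was the higher gene, with 43 and 91 UMIs and a ratio of 0.61 (0.09 to 1.19), and *Isl1* was at 0.43 (-0.03 to 0.93). All 14 cell cycle genes could be compared, with 4 at least 1.5-fold higher, none lower and a median of 0.20. Over all genes compared, 8.21% were higher and 13.9% lower. With at least 50 UMIs per gene, 7 cell cycle genes could be compared and 1 was higher. The higher ones were *Ccnb1*, a cyclin of mitosis (5 and 20 UMIs, 1.35, 0.09 to 3.32), the proliferation marker *Mki67* (7 and 20 UMIs, 0.94, -0.24 to 2.55), *Mcm5* (8 and 21 UMIs, 0.84, -0.29 to 2.32) and *Rrm2* (19 and 41 UMIs, 0.62, -0.16 to 1.52), and the interval of *Ccnb1* alone excluded 0. *Ube2c* was at 0.38 (-0.16 to 0.96), *Ccnd1* at -0.29 (-0.71 to 0.14) and *Cdkn1c*, an inhibitor of the cell cycle, at -0.03 (-0.31 to 0.25), all including 0.

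Outside photoreceptor precursor-like cells the genes differed in what they were found with. In other retinal classes, 41 cells had *Prdm1*, and 61.0% of them had at least 2 of the 6 photoreceptor markers, against 3.69% of retinal cells without *Prdm1*. Of 31 such cells with *Crx*, 1 had 2 or more markers, 3.23% against 4.18% of those without, and 22 had none. Of 204 such cells with *Thrb*, 7.84% had 2 or more, against 4.01% of those without, and of 52 such cells with *Rxrg* 7.69%, against 4.13%. Within the class, all 56 cells with *Crx*, 37 of 41 with *Thrb*, all 18 with *Rxrg* and 67 of 70 with *Prdm1* had 2 or more, against 63.8%, 75.0%, 76.6% and 60% of cells without the gene in the same order. The class was named from these same markers.

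Retinal cells with *Thrb* outside the class were often ganglion cell-like in their other genes. *Gap43*, a gene of growing axons, was found in 55.4% (48.3 to 62.3) of them and in 24.9% (23.7 to 26.2) of cells without *Thrb*, and the ganglion cell factor *Pou4f2* in 36.8% (30.1 to 43.8) and 13.6% (12.7 to 14.7). *Isl1* was found in 41.2% (34.3 to 48.3) and 18.1% (17.0 to 19.2). The cells with *Thrb* were deeper, with a median of 16788 UMIs against 10151.5. After thinning to 3000 UMIs, over all retinal cells, *Pou4f2* was found in 13.8% of the 58 cells with *Thrb* and 8.20% of those without.

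*Crx* in retinal progenitor-like cells went against the photoreceptor class, as 12 control and 28 mutant UMIs, 0.622 and 1.47 CPM, a log2 ratio of 1.18 (0.22 to 2.35). Of these 40 UMIs, 23 came from 1 cluster, in which 2 control cells held 6 and 6 mutant cells held 17. The sum therefore rested on few cells. *Thrb* in progenitor-like cells was lower, with a ratio of -0.77 (-1.38 to -0.21), as in the photoreceptor class, and its 70 and 40 UMIs lay in 65 and 39 cells. Over all kept cells the ratio was -0.57 (-0.86 to -0.29) for *Thrb*, -0.48 (-0.83 to -0.13) for *Rxrg*, -0.31 (-0.67 to 0.05) for *Crx* and 0.09 (-0.23 to 0.42) for *Prdm1*. *Rxrg* in muscle precursor-like cells, which lie outside the eye field lineage, was at -0.88 (-1.78 to -0.06).

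The genes with the nearest pattern to each were taken from 13560 genes over 78 points, each the log2(CPM + 1) of a cluster of at least 20 cells in 1 library, as a description, since the points share libraries and depth. Nearest to *Crx* were *Neurod4* (Pearson's r 0.69), the potassium channel gene *Kcnd3*, *Magel2*, *Cplx3*, which encodes a complexin of retinal synapses, and the ephrin receptor gene *Epha8*. Among the nearest to *Prdm1* were *Btg2*, *Prdm8*, *Neurod4* and *Gadd45a*, and nearest to *Thrb* were *Wscd2* (0.79), *Slain1*, *Wdr66*, *Dach2* and *Acsl6*. Nearest to *Rxrg* were *Ajap1* (0.72), *Cpm*, *St6galnac5*, *Deptor* and *Fitm1*. Between the 4 genes, r was 0.60 for *Crx* and *Thrb*, 0.55 for *Crx* and *Prdm1*, 0.35 for *Thrb* and *Prdm1*, 0.31 for *Crx* and *Rxrg*, 0.23 for *Thrb* and *Rxrg* and 0.07 for *Rxrg* and *Prdm1*. Over 28 points of classes in place of clusters, 1 of the 5 nearest genes was shared for each member.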

How the data were processed

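UMI counts per gene and barcode were deposited by the authors for called cells of 2 libraries at e13.5, made from reads aligned to mm10 with Cell Ranger 7.1.0 per the submitters' processing notes (the header of the count files gives software version 3.0.0), without normalization and without the filters on cells that the study later applied. Members, gene lists and alternatives were chosen with earlier results of these data known.

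Kept barcodes had at least 200 genes and at most 15% mitochondrial UMIs. Doublets were called by Scrublet (scanpy 1.11.5, expected rate 5%), which marked 51 control and 74 mutant doublets. The study's upper limit of 2000 UMIs per cell was run as an alternative only. Cells were integrated and clustered in Seurat 5.3.0 under R 4.3.3, with 1971 of 2000 variable features, 30 principal components and resolution 1.6. This resolution was chosen after the clusters had been seen, because no cluster passed as photoreceptor precursor-like at 0.4 or 0.8. A name needed at least 3 markers detected in at least 10% of cells and a mean log2 fold of the markers of at least 0.5, with thresholds set after clusters were seen. UMIs were summed per class and library in Python with scipy 1.17.1, and ratios divided the mutant by the control level after adding 1 UMI to every sum, with an exact conditional binomial interval. Levels have exact Poisson, shares Clopper-Pearson and differences of shares Newcombe intervals, all for counting error only. Genes at least 1.5-fold apart were counted over genes with at least 10 UMIs. The named genes were the 4 members in every class, listed genes with at least 100 UMIs in the class or found in at least 10% of cells with a member, and the 5 genes nearest in pattern. On simulated counts of 8466 genes with 200 changed, intervals covered the true ratio for 96.5% of changed genes, and the sign was right for 97.5%. These counts were Poisson draws of class sums without spread between cells or embryos. They check the calculation only and cannot show how the intervals hold under that spread. Libraries at e15.5 and P0 were not analysed here. Results for some of the listed or nearest genes are not reported here.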

Additional observations from a re-analysis of the deposited data

How the results depend on the processing

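No paired analysis was possible because each genotype has 1 library. Of 56 alternative values of the 4 ratios, 48 lay within the reported interval without a change in whether 0 was excluded. Means of log values have no interval, so only their value was compared. Direction was not kept throughout, as *Prdm1* was below 0 in 9 of 14 alternatives, while *Crx*, *Thrb* and *Rxrg* were below 0 in all 14. With the listed genes among the variable features, the log2 ratio was -0.34 for *Crx* and -0.49 for *Thrb*, both within counting error. In cells of male embryos it was -0.15 for *Crx* and -0.72 for *Thrb*, within counting error, and -2.05 for *Rxrg*, beyond it. Over all retinal cells *Crx* was at -0.18. Thinned to 3000 UMIs, *Crx* was at -0.53 and *Prdm1* at 0.41. The interval of *Crx* lay wholly below 0 in 9 of the 14 alternatives and that of *Thrb* in 11. No cluster passed as photoreceptor precursor-like at resolutions of 0.4 and 0.8 or without integration, and cells of at most 2000 UMIs held no UMI of the 4 genes in the class, so these gave no ratio. The runs at resolution 2.4, with and without integration, and without the shared barcodes were added after seeing the data.

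The share of retinal cells in the class, 2.20% in the control and 2.75% in the mutant, became 3.03% and 3.62% without doublet removal, 1.27% and 1.21% with the listed genes among the variable features, 0.306% and 0.539% at no more than 2000 UMIs, 5.64% and 6.10% with a rule per cell, 0.951% and 1.16% of all kept cells, 3.39% and 3.69% in cells of female embryos and 3.45% and 3.87% in those of male embryos. Thinned to 1500 UMIs, *Crx* was found in 23.1% and 12.5% of the class and *Prdm1* in 15.4% and 15.3%. *Crx* was found in 25.0% of cells with *Thrb* at 1500 UMIs and 60% at 5000 UMIs, against 84.0% at 3000, and these shares rest on few cells.

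With at least 50 UMIs per gene in place of 10, genes at least 1.5-fold lower fell from 1173 to 176 and higher ones from 695 to 95. In the regulator list 0 were lower and 1 higher, in the bipolar list 0 lower, in the cone list 0 lower, in the shared photoreceptor list 1 lower and 0 higher, and in the cell cycle list 1 higher. With classes in place of clusters, 1 of the 5 genes nearest in pattern remained for each of the 4 genes. The cause of these shifts was not tested, apart from the smaller number of genes and cells that a stricter limit leaves by construction.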
